A study of Rattus norvegicus with 20 samples.

Results

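Hepatic mRNA abundances of Line-A rats were compared with those of Sprague-Dawley (S-D) rats. The comparison used 8 of the 20 arrays of the study, 4 Line-A and 4 S-D, each from the liver of a separate male rat aged 10 to 12 weeks. Line-A descends from crosses of Long-Evans (L-E) and Han/Wistar (H/W) rats, carries the mutant aryl hydrocarbon receptor (AHR) of H/W, and had been given corn oil by gavage 19 h before the liver was taken in the morning. S-D is an outbred strain with wild-type AHR. Its labels say only that the rats were controls, while the protocol deposited with every sample gives the same corn oil vehicle. Line-C, which also descends from L-E and H/W, carries wild-type AHR and had the same vehicle, served for a further comparison, as did the parental strains L-E (wild-type AHR) and H/W (mutant AHR), each with 4 rats. Line-A and S-D differ in their whole genetic background as well as at the AHR, so that no difference below can be assigned to that receptor.

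Each array reported 15923 ProbeSets, which are groups of short probes for 1 transcript, as log2 signals. A mean log2 signal of 4 over all 20 arrays was taken as the limit of expression, and the 7168 ProbeSets at or above it were described here. They represented 5388 genes by a single symbol. Just inside the limit lay ProbeSets of Nrap, Dnase2, Ptp4a3 and Sbf1, with mean signals between 4.00003 for Nrap and 4.00343 for Sbf1, and just outside it lay those of Ccdc107 at 3.99921, Tpm3 at 3.99743 and Pex11a at 3.99723. The 4 S-D arrays were scanned on a day of their own and came from a chip lot and an operator of their own, whereas the Line-A and Line-C arrays shared another day. Strain, scan day, lot and operator therefore cannot be told apart. The median signal per array was 3.56 to 3.69 in Line-A and 3.50 to 3.54 in S-D. The 3' signal of the GAPDH control exceeded its 5' signal by 0.39, 0.39, 0.42 and 0.17 log2 units in the Line-A rats, against 0.57, 0.55, 0.58 and 0.54 in the S-D rats, and the part of this difference in the results was not tested. For the beta-actin control the excess averaged 1.95 ± 0.12 in Line-A and 2.02 ± 0.08 in S-D (SD, n = 4 each), with overlapping groups. Hepatocyte markers such as albumin were abundant in both groups, with a summed linear signal of 327623 to 345125 over 11 genes in Line-A and 317517 to 328163 in S-D. All differences are Line-A minus S-D on the log2 scale, with adjusted p-values from limma.

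Liver is made up mostly of hepatocytes, which secrete plasma proteins, make and export lipid, break down amino acids and convert drugs and hormones. Between them lie Kupffer cells, the resident macrophages, and stellate, endothelial and bile duct cells. Whole tissue was measured, so fewer cells of a type and less RNA per cell cannot be told apart. Class II molecules of the major histocompatibility complex (MHC) show peptides from ingested proteins to helper T cells and are made by macrophages, dendritic cells and B cells, while class I molecules are carried by nearly every cell.

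At a false-discovery rate of 1%, 921 of the 7168 expressed ProbeSets (12.8%) differed between Line-A and S-D. Of these, 355 (4.95%) were higher in Line-A and 566 (7.9%) were lower. When each array was set to the same median over the expressed ProbeSets, the split was 513 higher and 525 lower. The excess of lower calls in the total count therefore depended on the scale, which moved the median difference from 0.03 to 0.09. Most differences were small. In 622 of the called ProbeSets the difference was under 2-fold, in 299 it was 2-fold or more (78 higher, 221 lower) and in 58 it was 4-fold or more (18 higher, 40 lower). Lower calls thus prevailed among differences far larger than that move of the median. The 4 Line-A and 4 S-D values did not overlap in 909 of the 921 called ProbeSets, and in 2877 (40.1%) of all expressed ProbeSets. Calls were made in 439 of 4428 ProbeSets with a mean signal from 4 to 8 (9.91%), in 422 of 2412 from 8 to 12 (17.5%) and in 60 of 328 at 12 and above (18.3%). Among the 8755 ProbeSets under the limit 129 (1.47%) were called. At the level of genes, 675 of 5388 (12.5%) were called, 274 higher (5.09%) and 401 lower (7.44%), and the median difference over all 5388 genes was 0.03. These gene-level shares are the background for each group of genes below. Most groups hold few calls. Of 37 lists with a called gene, 26 had a count that moved by over 1.5 times when 1 of the 20 arrays was left out. The counts of MHC class II, Kupffer, endothelial and bile duct markers, calcium-binding proteins and protease inhibitors were not among them.

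**Figure D1:**
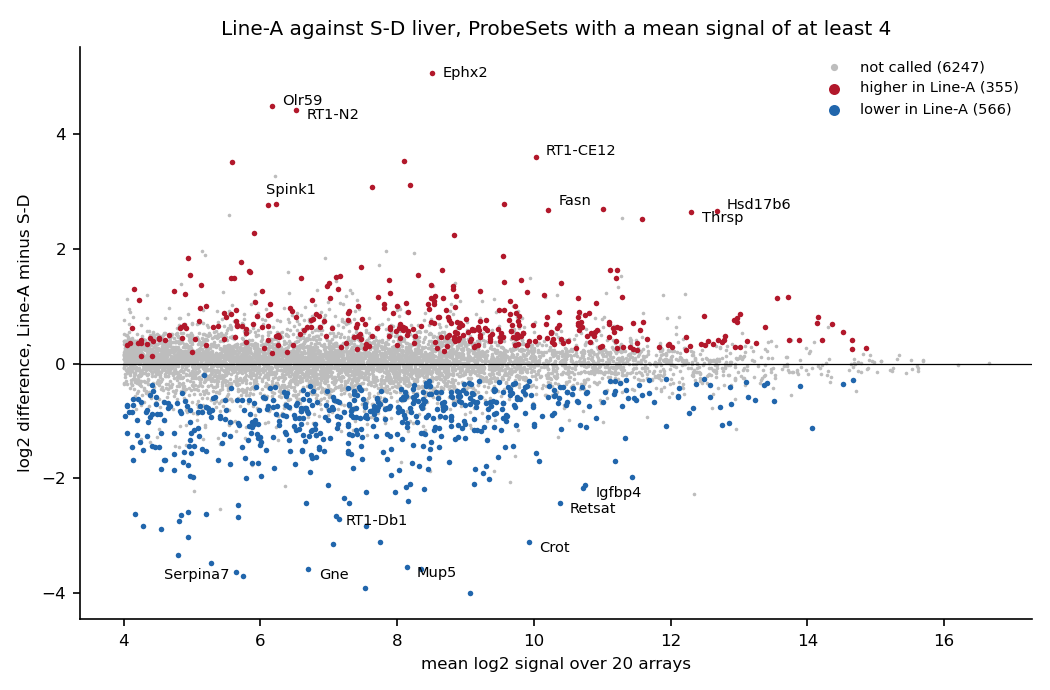
Log2 difference between Line-A and S-D liver (y axis) against the mean log2 signal over 20 arrays (x axis) for 7168 expressed ProbeSets, 1 point each. Called ProbeSets are coloured by direction (355 higher, 566 lower in Line-A) and reach from 5.07 for Ephx2 down to -4.00 for a ProbeSet without a single gene symbol.

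Genes of MHC class II were lower in Line-A liver. Of the 8 expressed genes of the class II list, 6 were called lower and none higher, with a median difference of -1.29 against 0.03 over all genes. RT1-Da and RT1-Db1 encode the alpha and beta chains of the rat D molecule, and RT1-Ba the alpha chain of the B molecule. All of them lie in the class II region of chromosome 20, where they were neighbours among the expressed genes. Their promoters are shown because these genes had the most negative differences among the expressed genes of the list and stand side by side. The windows are from RefSeq on the GRCr8 assembly, read 5′ to 3′ on the strand of the gene, and the capitals mark the letters of 3 motifs: TGATTGG, the Y box bound by the factor NF-Y, TAGCAAC, the core of the X1 box bound by the RFX complex, and TGACGTCA, a cyclic AMP response element.
RT1-Da, chr20:4515319-4515388, plus strand: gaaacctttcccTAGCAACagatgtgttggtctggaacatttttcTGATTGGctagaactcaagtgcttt
RT1-Db1, chr20:4560220-4560289, minus strand: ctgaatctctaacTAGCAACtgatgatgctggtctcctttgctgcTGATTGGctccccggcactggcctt
RT1-Ba, chr20:4576967-4577036, plus strand: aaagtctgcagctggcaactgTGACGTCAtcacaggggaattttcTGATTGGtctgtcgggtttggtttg
Counted from the annotated start of transcription, the Y box began at position -51 in RT1-Da, -82 in RT1-Db1 and -45 in RT1-Ba. Both strands were searched, in windows of 300 bases, and the motifs and genes were picked after the sequences were seen. TGATTGG occurred in 7.06% of 33469 rat promoters, TAGCAAC in 3.58% and TGACGTCA in 1.83%. Among the 4961 promoters of expressed genes the shares were 9.66%, 3.06% and 3.04%. The promoter of Cd74 held 1 TAGCAAC and no TGATTGG, and that of Ctss held none of the 3.

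RT1-Db1 had log2 signals of 6.10, 6.34, 6.24 and 6.10 in the Line-A rats, against 8.70, 8.85, 8.54 and 9.29 in the S-D rats. The groups lay far apart, with every Line-A rat more than 2 log2 units below every S-D rat. The difference was -2.65 ± 0.17 (SE, limma adjusted p = 4.11e-08), which is 6.28-fold lower in Line-A. RT1-Ba was 6.68, 6.98, 6.94 and 7.07 in Line-A and 9.70, 8.68, 9.58 and 8.69 in S-D, so that the S-D rats fell into a higher and a lower pair, both above Line-A (difference -2.24 ± 0.27, adjusted p = 4.30e-05). RT1-Da was 8.45, 8.78, 8.79 and 8.40 in Line-A and 10.35, 10.36, 10.32 and 10.54 in S-D (difference -1.79 ± 0.18, adjusted p = 5.12e-06). Its values were tight within each group and did not overlap.

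Accessory genes of the class II pathway were also lower. RT1-DMb, a chain of the molecule that exchanges the bound peptide, averaged 5.23 ± 0.19 in Line-A and 6.68 ± 0.29 in S-D (SD, n = 4 each, difference -1.45, adjusted p = 4.29e-04). Cd74, the invariant chain that fills the groove until the peptide is loaded, averaged 9.88 ± 0.09 in Line-A and 11.02 ± 0.15 in S-D (difference -1.14, adjusted p = 1.61e-04). Cathepsin S (Ctss), the protease that cuts the invariant chain, averaged 8.27 ± 0.28 in Line-A and 9.21 ± 0.16 in S-D (difference -0.93, adjusted p = 0.00166). Ciita, the coactivator that switches class II genes on, had nearly the same signal in every rat, 5.51 to 5.55 in Line-A and 5.48 to 5.67 in S-D, and was not called. Its means in the other groups lay between 5.49 and 5.53. Whether this flat signal came from the transcript or from background was not tested. With scan day as a random block RT1-DMb and Ctss were no longer called (adjusted p = 0.0101 and 0.0294). Line-C also lay below S-D in RT1-Db1, RT1-Ba and RT1-Da, with differences of -2.32, -2.09 and -1.54 in a comparison that shares the S-D arrays, and none of these 3 genes differed between Line-A and Line-C (adjusted p = 0.623, 1 and 0.938).

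ProbeSets of the same class II gene did not always agree. RT1-Bb, the beta chain of the B molecule, was the one expressed class II gene with higher signals in Line-A, 6.30, 6.43, 6.17 and 5.93, against 5.27, 5.20, 4.65 and 4.78 in S-D. The groups did not overlap, yet the difference of 1.23 missed the threshold (adjusted p = 0.0131) and passed it when H/W replicate 1, L-E replicate 2 or H/W replicate 3 was left out (adjusted p = 0.0012 to 0.00893) or with the replicate number as a block (0.0080). Its dimmer ProbeSet, under the limit of expression over 20 arrays, ran the other way with a difference of -2.40 (adjusted p = 0.0473). It had 3.24, 8.05, 3.29 and 8.63 in S-D, against 3.35 to 3.51 in Line-A. This difference therefore came from S-D replicates 2 and 4, while replicates 1 and 3 were under the limit like Line-A. Second ProbeSets of RT1-Ba and RT1-Db1 gave differences of -0.44 (adjusted p = 0.383) and -0.74 (0.0798), neither of which passed the test. The S-D rats scattered in both, with SDs of 1.02 and 1.07.

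Class I genes went both ways. Of 18 expressed genes of class I antigen presentation, 2 were called higher and 3 lower in Line-A (median -0.15). Of the lower calls 1 remained without S-D replicate 2, 3 or 4 or Line-A replicate 4, and likewise with the replicate number as a block, with equal array medians and with scan day as a random block. The class I gene RT1-CE12 was among the largest differences of all, with 10.65, 11.06, 10.97 and 11.16 in Line-A against 7.22, 7.47, 7.19 and 7.53 in S-D. Its signal was 12.2-fold higher (difference 3.61 ± 0.17, adjusted p = 9.94e-10). RT1-N2, a nonclassical class I gene, had 7.97, 8.41, 7.92 and 8.08 in Line-A, while all S-D rats lay under the limit of expression at 3.90, 3.61, 3.57 and 3.58. Measured against that limit the Line-A signal was at least 17.1-fold higher (adjusted p = 1.29e-04). The RT1-CE genes are a family of similar copies, so that probes may not tell them apart. RT1-CE12 was also high in Line-C, at 10.89 ± 0.29, whereas RT1-N2 in Line-C was 3.58 ± 0.05, under the limit, so that RT1-N2 in Line-A was at least 17.1-fold above Line-C too (adjusted p = 6.20e-04). Psme1, an activator of the proteasome that trims class I peptides, averaged 11.08 ± 0.11 in Line-A and 11.68 ± 0.10 in S-D (difference -0.60, adjusted p = 9.26e-05).

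Interferon-induced genes were lower or not called. Of 16 expressed genes of that list, 4 were called lower and none higher, with a median of -0.58. Ifitm1, a membrane protein that restricts virus entry, had 8.41, 8.44, 8.31 and 7.89 in Line-A against 9.24, 9.48, 9.45 and 9.30 in S-D (difference -1.10 ± 0.12, adjusted p = 1.95e-05). Ly6e, a membrane protein induced by interferon that stood outside the list, had 6.60, 5.95, 6.54 and 5.79 in Line-A and 8.21, 9.17, 8.69 and 8.55 in S-D (difference -2.44 ± 0.21, adjusted p = 1.54e-06). Both genes separated the groups without overlap. Ifitm3 was not called between Line-A and S-D, with 10.69, 9.26, 9.80 and 9.37 in Line-A overlapping 10.27, 11.32, 10.79 and 10.84 in S-D (adjusted p = 0.0475). It did differ between Line-A and Line-C, by -2.36 (adjusted p = 0.00325), as did Ly6e, by -1.23 (adjusted p = 0.00585). Of the 4 list genes 2 were called without S-D replicate 2 or 3 or Line-A replicate 2, 3 or 4, and 1 was called with scan day as a random block.

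Markers of Kupffer cells were lower in Line-A almost throughout. Of 10 expressed markers, 9 were called lower and none higher, with a median difference of -0.95. In 9 of the 10 the groups did not overlap, as in 909 of the 921 called ProbeSets and 40.1% of all expressed ones. The summed linear signal of the 10 markers was 2268 to 2542 in Line-A and 3965 to 5439 in S-D. In Line-C it was 4048 to 4902, where 4 of the 10 were called lower than S-D (background 4.86% of genes), 1 was called higher (background 3.23%) and the median was -0.43. The higher one was Cd14, with a Line-C minus S-D difference of 1.49 (adjusted p = 0.00520). Cd68, a lysosomal glycoprotein of macrophages, had 4.40, 4.34, 4.57 and 4.10 in Line-A against 5.41, 5.87, 6.22 and 5.63 in S-D (difference -1.43 ± 0.23, adjusted p = 4.74e-04). Lyz2, lysozyme, had 7.02, 7.76, 6.78 and 7.31 in Line-A against 8.73, 8.69, 8.67 and 8.59 in S-D (difference -1.45 ± 0.21, adjusted p = 1.66e-04). In both genes every Line-A rat was below every S-D rat, and Lyz2 varied more among the Line-A rats than among the S-D rats. Lyz2 also differed from Line-C, where it averaged 9.04 ± 0.24, by -1.82 (adjusted p = 1.09e-04).

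The 3 chains of complement C1q, which binds antibody on targets and in liver comes from macrophages, were neighbours on chromosome 5 among the expressed genes and were all lower. C1qc had 8.61, 8.47, 8.65 and 8.23 in Line-A and 9.66, 10.01, 9.66 and 9.79 in S-D (difference -1.29 ± 0.15, adjusted p = 2.14e-05). C1qa differed by -1.07 ± 0.12 (adjusted p = 1.43e-05) and C1qb by -0.66 ± 0.14 (adjusted p = 0.00529). The call of C1qb was lost without S-D replicate 2, 3 or 4 or Line-A replicate 2, 3 or 4 (adjusted p = 0.0107 to 0.0206). C1r, the protease that joins C1q, was also lower, at 10.60 ± 0.22 in Line-A and 11.56 ± 0.10 in S-D (adjusted p = 5.85e-04). These 4 were the only called genes among 26 expressed genes of complement and coagulation, whose median was -0.10.

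Further macrophage genes had differences from -0.48 to -1.24. Csf1r, the receptor that keeps macrophages alive, averaged 6.09 ± 0.22 in Line-A and 6.92 ± 0.04 in S-D (difference -0.83, adjusted p = 7.84e-04). Aif1, a macrophage calcium-binding protein, averaged 6.03 ± 0.21 in Line-A and 7.11 ± 0.33 in S-D (difference -1.09, adjusted p = 0.00165). Ptprc, the pan-leukocyte antigen CD45, differed by -0.48 (adjusted p = 0.00147). The antibody receptor Fcgr3a averaged 3.85 ± 0.26 in Line-A, under the limit of expression, and 5.09 ± 0.23 in S-D, at least 2.1-fold lower in Line-A (adjusted p = 9.73e-05). Cd14, a receptor for bacterial lipopolysaccharide, was the Kupffer marker that missed the threshold, with 7.97, 7.81, 7.98 and 7.87 in Line-A against 7.54, 9.16, 8.92 and 9.10 in S-D. S-D replicate 1 was below all Line-A rats, and without it the difference was -1.15 (adjusted p = 0.00402), against -0.77 (0.0559) with it. Cd14 differed between Line-A and Line-C, whose mean was 10.17 ± 0.07, by -2.26 (adjusted p = 7.40e-04). With scan day as a random block 3 of the 9 Kupffer calls remained. Cd68, Csf1r, Aif1, Ptprc and C1qb of that list and C1r of the complement list missed the threshold (adjusted p = 0.0109 to 0.0455). A further Kupffer marker, not described here, also lost its call.

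Collagen genes and Vim, of the stellate cell list, were lower in Line-A. Of 10 expressed stellate and fibroblast markers, 4 were called lower and none higher (median -1.10), and 6 more of that list were under the limit of expression. Without H/W replicate 3, an array outside the pair, 7 were called lower. Over the 16 genes of the list on the array the summed linear signal was 1224 to 1474 in Line-A and 2310 to 3905 in S-D. Col1a2, a chain of type I collagen, had 4.57, 4.37, 4.54 and 4.58 in Line-A, close to the limit of expression, against 6.25, 6.96, 6.03 and 6.62 in S-D (difference -1.95 ± 0.20, adjusted p = 6.18e-06). Col1a1, the other chain, was evenly low in Line-A at 4.63, 4.61, 4.61 and 4.52, and scattered widely in S-D at 7.22, 7.96, 5.13 and 8.55 (difference -2.62 ± 0.49, adjusted p = 0.00182). S-D replicate 3 was the lowest S-D rat for both chains. Vim, the intermediate filament of mesenchymal cells, had 6.48, 6.95, 6.71 and 6.81 in Line-A and 8.32, 8.88, 8.23 and 8.80 in S-D (difference -1.82 ± 0.19, adjusted p = 8.17e-06). Col3a1 averaged 9.23 ± 0.15 in Line-A and 10.85 ± 0.34 in S-D (difference -1.63, adjusted p = 8.04e-05). A second, dimmer Col1a1 ProbeSet under the limit gave -0.42 (adjusted p = 0.0451), and with scan day as a random block Col1a1 was not called (adjusted p = 0.0318). Among the uncalled markers, Reln differed by -0.28 (adjusted p = 0.231). ProbeSets of Sparc disagreed, with 0.04 (adjusted p = 0.877) in the brighter one and -1.49 (3.82e-04) in one of nearly the same signal.

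Endothelial markers were lower to a smaller extent, with 4 of 6 called lower and none higher and a median of -0.59. Over the 12 genes of the list on the array the summed signal was 2107 to 2376 in Line-A and 3003 to 3672 in S-D. Lyve1, the hyaluronan receptor of sinusoidal endothelium, had 7.28, 7.22, 7.40 and 7.48 in Line-A against 8.15, 7.98, 8.47 and 8.34 in S-D (difference -0.89 ± 0.14, adjusted p = 3.69e-04). Fcgr2b, the antibody receptor of the same cells, differed by -0.68 (adjusted p = 0.00205) and Kdr, the main receptor for vascular growth factor, by -0.40 (adjusted p = 0.00230). With scan day as a random block 1 of the 4 calls remained, and Fcgr2b and Kdr had adjusted p-values of 0.0312 and 0.0302. Of 3 expressed bile duct markers, 2 were called lower. Slc4a2, the chloride and bicarbonate exchanger, had 6.45, 6.94, 7.0 and 6.91 in Line-A and 9.05, 9.08, 9.09 and 9.05 in S-D (difference -2.24 ± 0.22, adjusted p = 4.82e-06). Epcam, an adhesion molecule of bile duct cells, averaged 5.38 ± 0.18 in Line-A and 6.45 ± 0.27 in S-D (difference -1.07, adjusted p = 1.38e-04), and Anxa4 was not called, with overlapping values and a difference of 0.54 (adjusted p = 0.0824). Slc4a2 averaged 7.09 in Line-C, 8.62 in L-E and 8.26 in H/W, so that its S-D level was closer to the parental strains than to either line.

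Genes of other cell types were seldom called. Erythroid genes summed to 3410 to 6962 in Line-A and 2316 to 3621 in S-D over the 6 genes on the array, of which 2 were expressed and neither was called. Pancreatic acinar markers summed to 572 to 711 in Line-A and 394 to 557 in S-D over the 12 genes on the array. The acinar list had 3 expressed genes, of which Spink1 alone was called. The T and NK cell, neutrophil and adipocyte lists had 1 expressed gene each, which was not called, and the B and plasma cell list had none. Of the 11 hepatocyte markers 2 were called higher, Apob among them, none lower, and the median was 0.00.

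**Figure D2:**
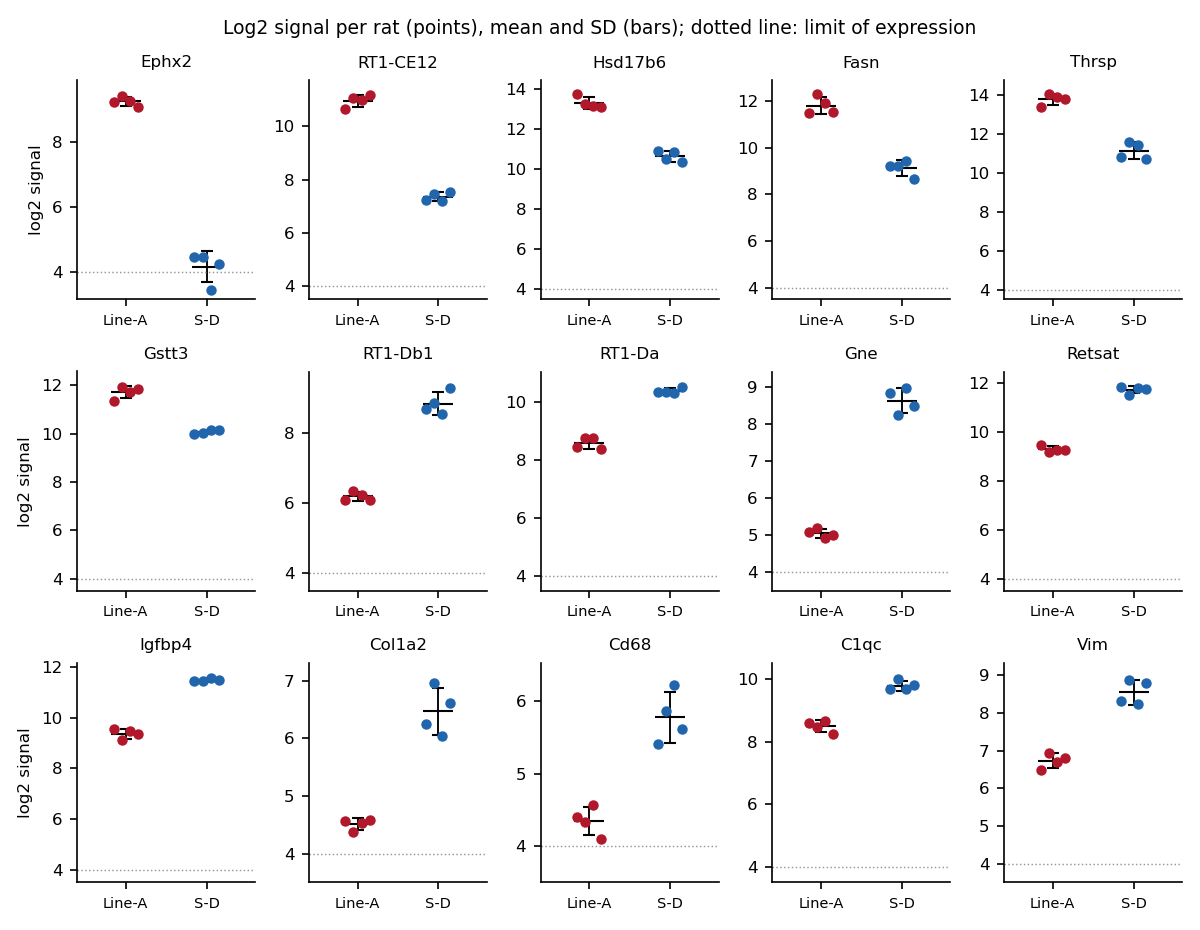
Log2 signal (y axis) of 15 genes in each Line-A and S-D rat (x axis), 1 point per rat, with the mean and SD as bars (n = 4 each). The dotted line marks the limit of expression at 4, and no gene shown has an S-D rat within the range of the Line-A rats.

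Several genes of fatty acid synthesis were higher in Line-A. Of 19 expressed genes of fatty acid and triglyceride synthesis, 5 were called higher and none lower, and the median was 0.25. Over the 22 genes of the list on the array the summed linear signal was 35641 to 61173 in Line-A and 21112 to 24896 in S-D. Fatty acid synthase (Fasn), which builds palmitate, had 11.52, 12.30, 11.91 and 11.54 in Line-A against 9.23, 9.23, 9.42 and 8.66 in S-D. It was 6.42-fold higher in Line-A (difference 2.68 ± 0.39, adjusted p = 1.96e-04), and its second ProbeSet gave 2.78. Thrsp (Spot 14), a nuclear protein that rises with lipid synthesis, had 13.40, 14.06, 13.92 and 13.82 in Line-A and 10.83, 11.62, 11.42 and 10.75 in S-D (difference 2.65 ± 0.40, adjusted p = 2.88e-04). Other Thrsp ProbeSets gave 2.52 and 2.70. In both genes the lowest Line-A rat was more than 1 log2 unit above the highest S-D rat.

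The enzymes that supply fatty acid synthase were higher by less. Acetyl-CoA carboxylase (Acaca), which makes malonyl-CoA, had 9.88, 11.13, 10.63 and 10.48 in Line-A and 9.24, 8.97, 9.22 and 8.98 in S-D (difference 1.43 ± 0.28, adjusted p = 0.00250). ATP citrate lyase (Acly), the source of cytosolic acetyl-CoA, had 11.23, 12.59, 12.52 and 12.19 in Line-A against 10.27, 10.55, 10.69 and 10.52 in S-D (difference 1.62 ± 0.36, adjusted p = 0.00649). Line-A replicate 1 was the lowest Line-A rat for Acaca, Acly, Fasn and Thrsp. Mid1ip1, which helps the carboxylase to polymerise, averaged 10.91 ± 0.44 in Line-A and 9.72 ± 0.22 in S-D (difference 1.19, adjusted p = 0.00515). Stearoyl-CoA desaturase (Scd) was not called although its groups did not overlap, at 13.08 ± 0.62 in Line-A and 11.55 ± 0.41 in S-D (difference 1.53, adjusted p = 0.0558), and neither was the regulator Srebf1, at 11.09 ± 0.06 in Line-A and 10.58 ± 0.32 in S-D (0.132), whose second ProbeSet gave a difference of -0.14. The call of Acly was lost without any 1 of the S-D arrays or Line-A replicate 2, 3 or 4 (adjusted p = 0.0132 to 0.0216), and with the replicate number as a block (0.0123), and that of Mid1ip1 was lost without S-D replicate 1 or 4 or Line-A replicate 3 or 4 (0.0158 to 0.0186). When scan day was a random block Acaca, Acly and Mid1ip1 were not called (0.0374 to 0.0748), which left 2 of the 5 calls of the list. Without S-D replicate 1 or 4 or Line-A replicate 3 or 4 there were 3. Thrsp and Fasn differed from Line-C by 2.16 and 1.80, with adjusted p-values of 0.010 and 0.0292 that missed the threshold. Of the other Thrsp ProbeSets 1 passed it (2.26, adjusted p = 0.00839) and 1 did not (2.13, adjusted p = 0.0115).

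Genes of the respiratory chain and ATP synthase leaned upward in small steps. Of 61 expressed genes 12 were called higher and none lower, 51 had a difference above 0, and the median was 0.19. The summed linear signal was 146633 to 152496 in Line-A and 129000 to 135067 in S-D. Atp5po, a stalk subunit of ATP synthase, had 11.41, 11.52, 11.45 and 11.51 in Line-A against 10.83, 10.68, 10.91 and 10.73 in S-D (difference 0.68 ± 0.08, adjusted p = 2.14e-05). Ndufc1 of complex I differed by 0.53 (adjusted p = 9.14e-05) and Cox7b of cytochrome oxidase by 0.47 (adjusted p = 1.82e-04). These differences were under 2-fold, and in none of the 3 genes did the rats of the groups overlap. The count of 12 became 24 without H/W replicate 3, 8 at the least without another array, 19 with equal array medians and 5 with scan day as a random block. Fatty acid oxidation had 3 genes called higher of 30 (median 0.03), glycolysis and gluconeogenesis 3 higher and 1 lower of 23 (0.16), and cytosolic ribosomal proteins 1 higher of 30 (0.01).

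**Figure D3:**
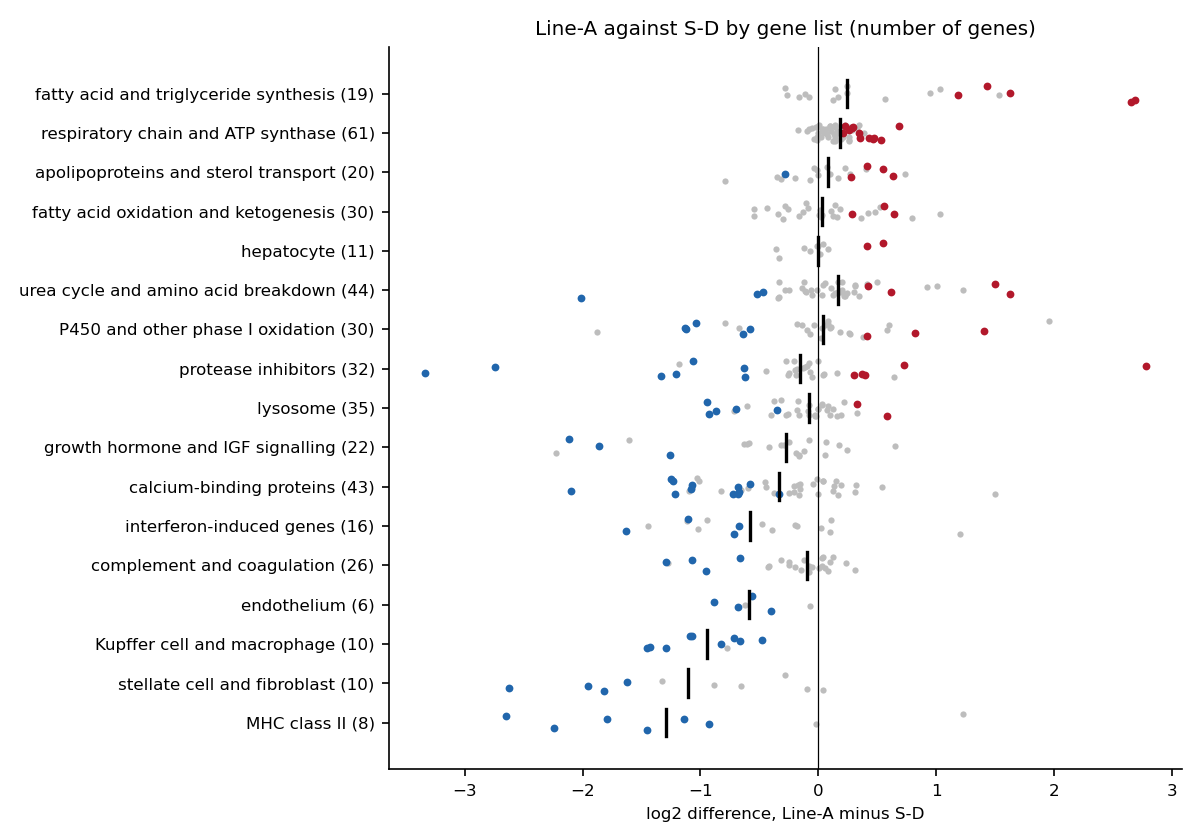
Log2 difference between Line-A and S-D (x axis) for the expressed genes of 17 lists, with the number of genes in brackets. Points are genes, coloured when called (red higher, blue lower in Line-A), and black bars are list medians, from 0.25 for fatty acid and triglyceride synthesis to -1.29 for MHC class II.

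Enzymes that form or open lipid epoxides differed in both directions. Soluble epoxide hydrolase (Ephx2), which turns fatty acid epoxides into diols, had the largest difference of any expressed ProbeSet. Its signals were 9.22, 9.39, 9.25 and 9.07 in Line-A, against 4.47, 4.47, 3.46 and 4.25 in S-D, where 1 rat was under the limit of expression and the others just above it. The difference was 5.07 ± 0.23 (adjusted p = 9.14e-10), or 30.5-fold when S-D values under the limit were set to it. Ephx2 averaged 9.61 in Line-C, 10.38 in L-E and 9.19 in H/W, so that S-D alone was near the limit. Cyp2j3 and Cyp2j4, P450 enzymes that make such epoxides from arachidonic acid, were higher in Line-A by 0.90 ± 0.14 (adjusted p = 3.93e-04) and 1.17 ± 0.17 (adjusted p = 1.85e-04). Microsomal epoxide hydrolase (Ephx1), which detoxifies foreign epoxides, had 10.98, 12.25, 12.15 and 11.99 in Line-A and 12.95, 13.30, 12.60 and 12.84 in S-D (difference -1.08 ± 0.23, adjusted p = 0.00411). Its groups were close, and the call was lost without S-D replicate 1 or 2 (0.0120 to 0.0169) and with scan day as a random block (0.0543). These 4 were the called genes among 11 expressed members of the list, whose median was 0.12.

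Drug-metabolising P450s also went both ways, with 3 of 30 expressed phase I genes called higher and 5 lower (median 0.04). Cyp3a2, a male-biased enzyme that hydroxylates testosterone, had 13.56, 13.72, 13.12 and 13.23 in Line-A and 14.48, 14.54, 14.52 and 14.62 in S-D (difference -1.13 ± 0.10, adjusted p = 2.42e-06). It also lay below Line-C, with a difference of -0.64 (adjusted p = 0.00325). Cyp2b3 was lower, with a difference of -1.04 (adjusted p = 4.46e-04), and Cyp3a9, a female-biased enzyme, was higher by 1.41 (adjusted p = 5.53e-04). Cyp2c12, a marker of female liver, split the Line-A rats into 6.53 and 6.53 against 9.02 and 9.63, while S-D had 10.17, 9.32, 10.24 and 9.48. It was not called at 1% FDR (adjusted p = 0.0328), and among the arrays left out singly it passed that threshold without Line-A replicate 3 alone (difference -2.44, adjusted p = 0.00726). It did differ from Line-C, which averaged 11.79, by -3.86 (adjusted p = 0.00176). Of the male-biased genes 3 of 17 were called lower and none higher (median -0.16), and of the female-biased genes 1 of 12 was called higher and none lower (0.20).

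Among AHR targets, Cyp1a2, a dioxin-inducible P450 that is also present in unexposed liver, had 14.32, 14.18, 14.37 and 14.35 in Line-A against 13.61, 13.23, 13.65 and 13.47 in S-D (difference 0.82 ± 0.10, adjusted p = 4.09e-05). The quinone reductase Nqo1 had 9.83, 8.77, 8.24 and 8.21 in Line-A and 8.35, 5.05, 4.25 and 5.05 in S-D. S-D replicate 1 reached the range of the Line-A rats, and the difference of 3.09 ± 0.70 (adjusted p = 0.00693) was not called without S-D replicate 2, 3 or 4 or any Line-A rat (0.0117 to 0.0272) or with scan day as a random block (0.0779). Of 9 expressed genes of the AHR list 3 were called higher and none lower (median 0.10), and 1 was called without S-D replicate 2, 3 or 4 or Line-A replicate 1, 3 or 4. Cyp1a2 was also high in Line-C, 14.38 ± 0.10, which carries the wild-type receptor, and no gene of the list differed between Line-A and Line-C. Of 20 expressed antioxidant genes Nqo1 alone was called (median -0.04), and of 24 nuclear receptors and liver transcription factors none was called in either direction (median -0.02).

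Conjugating enzymes had 4 genes called higher and 4 lower of 27 (median -0.02). Of the higher calls 1 was left without S-D replicate 1, 2 or 4, and 2 were left without Line-A replicate 1, 2 or 3 or with the replicate number as a block. With scan day as a random block no gene of the list was called in either direction. The glutathione transferase Gstt3, outside that list, had 11.34, 11.91, 11.74 and 11.86 in Line-A and 10.01, 10.01, 10.13 and 10.15 in S-D (difference 1.64 ± 0.22, adjusted p = 1.24e-04). Gstm2, another glutathione transferase, was lower, at 12.27 ± 0.23 in Line-A and 13.03 ± 0.16 in S-D (difference -0.76, adjusted p = 0.00152). The methyltransferase Tpmt, which inactivates thiopurine drugs, was higher by 0.98 (adjusted p = 0.00188). Inmt, which methylates indole amines, had 8.29, 9.68, 8.88 and 8.86 in Line-A and 5.78, 4.13, 7.68 and 5.67 in S-D. The S-D rats spread over more than 3 log2 units but stayed below Line-A (difference 3.11 ± 0.65, adjusted p = 0.00427), and the call was lost without S-D replicate 1, 2 or 4 or Line-A replicate 2, 3 or 4 (0.0110 to 0.0156). Under a random block for scan day Gstm2, Tpmt, Inmt and Cyp3a9 were not called (0.0133 to 0.0563).

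Hsd17b6, which acts on androgens and retinol, had 13.75, 13.22, 13.12 and 13.07 in Line-A and 10.88, 10.50, 10.83 and 10.33 in S-D. The groups were more than 2 log2 units apart (difference 2.66 ± 0.17, adjusted p = 4.11e-08), and Line-C, L-E and H/W averaged 13.07, 13.21 and 13.17. Retsat, which saturates retinol, ran the other way, with 9.47, 9.19, 9.28 and 9.28 in Line-A against 11.86, 11.52, 11.81 and 11.78 in S-D (difference -2.44 ± 0.14, adjusted p = 2.13e-08). Retsat was also low in Line-C and L-E, at 9.35 and 9.73, and high in H/W, at 11.77. Of 22 expressed plasma carriers and retinoid enzymes 2 were called higher and 2 lower (median -0.09).

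Secreted protease inhibitors and their relatives differed often, with 5 of 32 called higher and 7 lower (median -0.16). Spink1, a trypsin inhibitor of the pancreas that is also made in liver, had 8.68, 8.17, 8.17 and 8.58 in Line-A and 5.34, 5.87, 5.24 and 6.04 in S-D (difference 2.78 ± 0.42, adjusted p = 3.09e-04). Its other ProbeSets gave 1.54 and 3.52, so that the direction was shared and the size was not. Alpha-2-macroglobulin (A2m), an acute-phase inhibitor in rats, was evenly low in Line-A at 4.20, 4.15, 4.16 and 4.34 and uneven in S-D at 5.12, 8.27, 7.94 and 6.48 (difference -2.74 ± 0.46, adjusted p = 6.74e-04). A2m was the single call among 25 expressed acute-phase genes, whose median was -0.07. The thyroxine carrier Serpina7 had 4.04, 3.90, 3.24 and 3.31 in Line-A, where the mean was under the limit, and 6.26, 8.00, 6.08 and 7.48 in S-D, at least 7.71-fold lower in Line-A (adjusted p = 2.16e-04). The corticosteroid carrier Serpina6 was higher in Line-A, with 13.29, 12.93, 12.88 and 12.88 against 12.21, 12.51, 12.04 and 12.31 in S-D (difference 0.73, adjusted p = 6.79e-04), and the kallikrein inhibitor Serpina4 was higher by 0.39 (adjusted p = 1.47e-04).

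Among the 7 lower inhibitors was the metalloproteinase inhibitor Timp2, which had 5.86, 5.56, 6.07 and 6.06 in Line-A and 7.05, 7.33, 6.97 and 7.53 in S-D (difference -1.33 ± 0.19, adjusted p = 1.98e-04). Another was cystatin C (Cst3), which inhibits lysosomal cysteine proteases and had 9.50, 9.38, 9.20 and 9.21 in Line-A and 10.35, 10.33, 10.23 and 10.62 in S-D (difference -1.06 ± 0.12, adjusted p = 1.42e-05). For neither gene did the groups overlap. When scan day was a random block 3 higher and 4 lower calls of the inhibitor list remained, and A2m and Serpina6 missed the threshold (adjusted p = 0.0156 and 0.0108).

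Mup5, a major urinary protein of male rodents, had 6.80, 6.94, 6.99 and 7.09 in Line-A and 10.54, 10.44, 10.59 and 10.45 in S-D, 11.7-fold lower in Line-A (difference -3.55 ± 0.28, adjusted p = 5.25e-07). Mup5 averaged 6.45 in Line-C, 6.07 in L-E and 10.72 in H/W. Its other ProbeSets were dimmer and gave -0.99 (adjusted p = 0.0382) and -0.24 (0.393), and these genes form a family of near-identical copies whose probes may not be told apart. Apob, the protein of very low density lipoprotein, was higher in Line-A at 14.35, 14.23, 14.24 and 14.29, against 13.85, 13.94, 13.81 and 13.84 in S-D (difference 0.42 ± 0.04, adjusted p = 3.83e-06). Scarb1, the receptor that takes up cholesterol from high density lipoprotein, was higher by 0.63 (adjusted p = 1.88e-04). Of 20 expressed apolipoproteins and sterol transport genes 4 were called higher and 1 lower (median 0.09).

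Genes of growth hormone and insulin-like growth factor (IGF) signalling had 3 calls of 22, all lower, and a median of -0.27. The IGF carrier Igfbp4 had 9.56, 9.11, 9.48 and 9.35 in Line-A and 11.45, 11.44, 11.58 and 11.50 in S-D (difference -2.12 ± 0.26, adjusted p = 5.41e-05). Igfbp3, the main IGF carrier of plasma, which liver makes outside hepatocytes, had 8.03, 8.06, 8.14 and 8.51 in Line-A and 9.27, 9.41, 9.58 and 9.52 in S-D (difference -1.26 ± 0.13, adjusted p = 5.96e-06). Igfbp3 was lower than in Line-C too, with a difference of -0.81 (adjusted p = 0.00201). Prkaa2, a catalytic subunit of the AMP-activated kinase, had 7.03, 7.53, 7.74 and 8.26 in Line-A and 9.57, 9.50, 9.44 and 9.49 in S-D (difference -1.86 ± 0.27, adjusted p = 1.81e-04). The Line-A rats scattered for this gene while the S-D rats were nearly equal.

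Calcium-binding proteins were another group with calls in a single direction, with 12 of 43 called lower, none higher and a median of -0.34. Several of them are annexins, which bind membranes when calcium rises. Anxa3 had 6.51, 6.33, 6.49 and 6.29 in Line-A and 7.52, 7.75, 7.86 and 7.49 in S-D (difference -1.25 ± 0.18, adjusted p = 1.61e-04). Anxa6 and Anxa2 were lower as well, with differences of -1.22 (adjusted p = 1.26e-04) and -1.07 (adjusted p = 9.48e-06). Desmocollin 2 (Dsc2), a cadherin of desmosomes, had 7.83, 7.09, 6.68 and 6.39 in Line-A and 9.28, 9.42, 8.42 and 9.25 in S-D (difference -2.10 ± 0.30, adjusted p = 1.57e-04), and was lower than in Line-C, with a difference of -2.87 (adjusted p = 3.86e-05). Fstl1, a secreted glycoprotein of mesenchymal cells, averaged 5.6 ± 0.08 in Line-A and 6.83 ± 0.37 in S-D (adjusted p = 8.83e-04), and was not called with scan day as a random block (0.0176). In these 5 genes no Line-A rat reached the range of S-D. With the random block 6 of the 12 calls remained. Most markers of Kupffer, stellate and endothelial cells and 2 of 3 expressed bile duct markers moved in the same direction. Their part in this group was not tested. Anxa4, of both the bile duct and the calcium-binding lists, went the other way (0.54, adjusted p = 0.0824).

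Of 44 expressed genes of the urea cycle and amino acid breakdown 4 were called higher and 3 lower (median 0.17). Alanine aminotransferase (Gpt) had 12.03, 12.15, 11.79 and 11.40 in Line-A and 10.24, 9.88, 10.82 and 10.42 in S-D (difference 1.5 ± 0.21, adjusted p = 1.47e-04). Sqor, the mitochondrial enzyme that oxidises sulfide, had 10.25, 9.96, 10.01 and 9.89 in Line-A and 8.45, 8.28, 8.22 and 8.66 in S-D (difference 1.63 ± 0.12, adjusted p = 4.11e-07). Csad, which makes hypotaurine on the way to taurine, had 7.49, 8.94, 9.01 and 9.44 in Line-A and 10.60, 10.76, 10.82 and 10.78 in S-D (difference -2.02 ± 0.36, adjusted p = 0.00127). For Csad the Line-A rats were spread over almost 2 log2 units below a tight S-D group. Haao, of the kynurenine pathway, was higher by 0.61 (adjusted p = 1.95e-05). Gnmt, which uses up methyl groups of S-adenosylmethionine, was higher by 0.84 (adjusted p = 9.59e-04), 1 of 2 higher calls among 10 expressed serine, glycine and one-carbon genes (median 0.05). Phgdh and Psat1 of that list were under the limit over 20 arrays and so outside these counts. They were lower in Line-A, by at least 4.22-fold (adjusted p = 5.25e-07) and 3.20-fold (adjusted p = 0.00467). Under a random block for scan day Csad and Gnmt were not called (0.0177 and 0.0199).

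Sterol genes differed little. Of 19 expressed genes of cholesterol synthesis a single one was called, lanosterol synthase (Lss), with 6.48, 6.46, 6.78 and 6.55 in Line-A and 8.34, 7.61, 8.54 and 8.41 in S-D (difference -1.66 ± 0.21, adjusted p = 5.71e-05). Its second ProbeSet gave -0.72 and was not called (adjusted p = 0.0202), and the list median was -0.05. Of 20 genes of bile acid synthesis and transport 2 were called lower and none higher (median -0.05). Among these was the bile salt export pump Abcb11, at 10.18, 10.22, 10.32 and 10.48 in Line-A and 11.60, 11.28, 11.21 and 11.54 in S-D (difference -1.10 ± 0.20, adjusted p = 0.00166, with scan day as a random block 0.0294).

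Lysosomal genes had 2 calls higher and 5 lower of 35 (median -0.08). Cathepsin H (Ctsh) was higher in Line-A, at 11.99 ± 0.07 against 11.41 ± 0.20 in S-D (difference 0.58, adjusted p = 4.93e-04, random block 0.0116). The lipofuscinosis enzymes Tpp1 and Ppt1 were lower, with differences of -0.94 (adjusted p = 7.41e-05) and -0.87 (adjusted p = 2.05e-04). Ctsh and Tpp1 differed from Line-C as well, by 0.59 (adjusted p = 0.00269) and -0.89 (adjusted p = 7.61e-04). In the proteasome and chaperone list 3 of 47 were called higher and 3 lower (median 0.13), among them the proteasome ATPase Psmc4, higher by 0.40 (adjusted p = 1.34e-04), and the small heat shock protein Hspb1, lower with a difference of -1.26 (adjusted p = 0.00180, random block 0.0277). Amino acid and ER stress genes had 1 lower call of 15 (median 0.13), circadian clock genes 1 higher of 9 (-0.03) and iron genes 1 higher and 1 lower of 17 (-0.08).

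Some of the largest differences belonged to genes outside these groups. Gne, the enzyme that starts sialic acid synthesis, had 5.08, 5.19, 4.92 and 5.0 in Line-A and 8.85, 8.24, 8.97 and 8.48 in S-D (difference -3.59 ± 0.20, adjusted p = 8.30e-09). Gne averaged 5.21 in Line-C and 5.40 in L-E but 9.22 in H/W. C11h21orf91 on chromosome 11 had 4.44, 4.44, 4.42 and 4.53 in Line-A and 7.75, 8.48, 7.90 and 8.49 in S-D (difference -3.70 ± 0.40, adjusted p = 1.42e-05), and was also low in Line-C at 4.42. Carboxypeptidase D (Cpd) had 6.10, 6.64, 7.02 and 6.30 in Line-A and 8.79, 9.26, 9.21 and 9.62 in S-D (difference -2.70 ± 0.39, adjusted p = 2.05e-04). Vat1, a membrane protein of vesicles and mitochondria, had 6.63, 6.55, 6.58 and 6.31 in Line-A and 8.65, 8.76, 9.01 and 9.26 in S-D (difference -2.40 ± 0.34, adjusted p = 1.67e-04). Each of these separated the groups by at least 1 log2 unit.

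Crot, which moves medium-chain acyl groups out of peroxisomes, was uneven within Line-A. It had 9.94, 6.03, 7.11 and 6.07 in Line-A and 10.48, 10.53, 10.18 and 10.43 in S-D, so that Line-A replicate 1 was close to S-D and the other 3 were far below. The difference was -3.12 ± 0.59 (adjusted p = 0.00191), with -3.15 for the second ProbeSet, and Crot was not called with scan day as a random block (0.0325). Genes higher in Line-A included Dync1li1, a light intermediate chain of dynein, with 7.98, 8.36, 8.58 and 8.62 in Line-A and 6.27, 7.07, 6.59 and 6.89 in S-D (difference 1.68 ± 0.18, adjusted p = 1.01e-05). Pdia5, a protein disulfide isomerase, had 10.16, 9.81, 9.62 and 9.87 in Line-A and 9.40, 7.81, 7.53 and 7.20 in S-D, where replicate 1 was the highest (difference 1.88 ± 0.31, adjusted p = 6.72e-04, random block 0.0153). Dync1li1 and Pdia5 were also high in Line-C, at 8.46 and 10.12.

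Because Line-A and Line-C shared a scan day, the contrast between them was used to test whether the difference from S-D was larger in one line than in the other. Of the 5388 genes 53 (0.984%) differed between the lines, 26 higher (0.483%) and 27 lower (0.501%) in Line-A. Of these 53, 34 were also called between Line-A and S-D, 16 higher and 18 lower, whereas 641 genes were called between Line-A and S-D and not between the lines. Line-C differed from S-D in 436 genes (8.09%), 174 higher (3.23%) and 262 lower (4.86%), a comparison that shares the 4 S-D rats. Both lines carry L-E and H/W genomes, and the labels name the AHR as one difference between them.

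Olr59, an olfactory receptor gene, had 7.54, 8.84, 8.76 and 8.62 in Line-A and 3.93, 3.92, 3.11 and 4.87 in S-D, or at least 18.7-fold higher in the line (adjusted p = 1.10e-06). It averaged 4.84 ± 0.30 in Line-C, and Line-A exceeded Line-C by 3.60 (adjusted p = 5.22e-05). Itga1, the alpha chain of a collagen-binding integrin, had 3.62, 3.79, 3.59 and 3.66 in Line-A, all under the limit, and 6.28, 6.90, 5.05 and 7.12 in S-D, at least 5.06-fold lower in Line-A (adjusted p = 2.58e-04). Line-C and H/W lay near S-D, at 6.93 and 6.83, L-E averaged 4.62, and Line-A was at least 7.62-fold below Line-C (adjusted p = 2.46e-04). Sqor showed the reverse order of the lines about S-D, with 10.03 ± 0.16 in Line-A, 7.34 ± 0.19 in Line-C and 8.40 ± 0.20 in S-D, so that Line-A was higher than S-D and Line-C lower (Line-C minus S-D -1.06, adjusted p = 3.02e-05). The difference of Line-A from Line-C in Sqor was 2.69 (adjusted p = 5.39e-10). Haao and Serpina4 exceeded Line-C by 0.56 (adjusted p = 2.77e-04) and 0.30 (adjusted p = 0.00993). Of the Spink1 ProbeSets, the brightest missed the threshold against Line-C (1.92, adjusted p = 0.0319), 1 passed it (2.56, adjusted p = 5.68e-04) and 1 did not (0.32, adjusted p = 0.993).

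**Figure D4:**
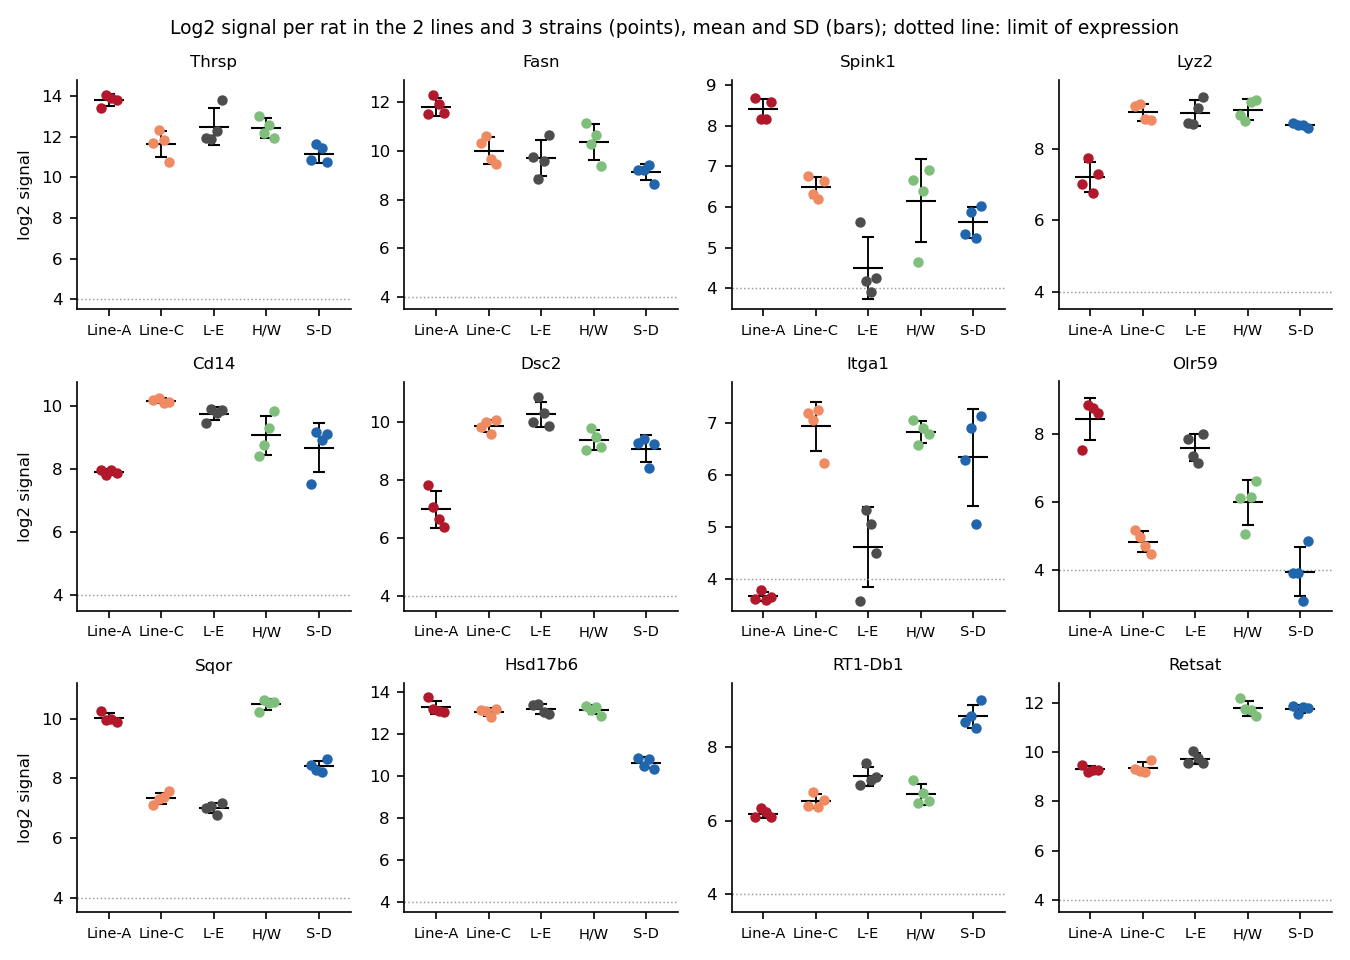
Log2 signal (y axis) of 12 genes in each rat of Line-A, Line-C, L-E, H/W and S-D (x axis), 1 point per rat, with the mean and SD as bars (n = 4 each). Dsc2, Itga1, Lyz2, Cd14 and Olr59 separate Line-A from Line-C, whereas Hsd17b6, RT1-Db1 and Retsat have similar values in both lines and others in S-D.

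Called genes were found on every chromosome, from 8.33% of the expressed genes on chromosome 19 to 18.4% on chromosome 13. In the order of 5373 expressed genes along the chromosomes there were 5 runs of 3 neighbours called in the same direction. They were RT1-Da, RT1-Db1 and RT1-Ba on chromosome 20, C1qb, C1qc and C1qa on chromosome 5, Il18bp, Nup98 and Pgap2 and a run from Hnrnpul1 over Axl to Cyp2b3 on chromosome 1, all lower in Line-A, and Saysd1, Rtraf and Cd99l2 on chromosome 15, higher in Line-A. Hnrnpul1, a nuclear RNA-binding protein, had 4.01, 4.75, 4.57 and 4.09 in Line-A and 6.75, 6.71, 7.08 and 6.74 in S-D (difference -2.46 ± 0.29, adjusted p = 3.52e-05), and was also low in Line-C at 4.25. Of the 15 genes in runs 6 lost their call when 1 array was left out, and in the C1q run this was C1qb. The number of runs was not tested against chance.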

How the data were processed

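Liver mRNA of 20 male rats, 4 each of Line-A, Line-C, L-E, H/W and S-D, was hybridised to RAE230A arrays, 1 rat per array. The deposited ProbeSet values are on a log2 scale and came from GC-RMA, by which the authors corrected probes for background by base composition, equalised the arrays and summarised the probes. The submitters' processing notes name R 2.6.1, affy 1.12.0 and GCRMA 2.10.0. Deposited array headers gave scan day (5 in all), chip lot (4) and operator. Levels were not compared between genes, and the number of arrays limits the precision.

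The values of all 20 arrays entered 1 limma 3.58.1 fit (R 4.3.3) with a term for each strain or line, moderated variances and no further scaling. Two-sided p-values were adjusted after Benjamini and Hochberg across the 15923 ProbeSets and called at 1% FDR. Of these ProbeSets 12789 had a single gene symbol in the platform annotation, 12754 of them with a current RefSeq gene, and a gene was represented by its brightest one. Where a group mean was under 4, values under 4 were set to 4 for a bound of the fold. In simulated data of 15923 ProbeSets 33 of 100 log2 differences of 0.5 and 74 of 100 of 1 between Line-A and S-D were recovered, and no unchanged ProbeSet was called. The simulated noise was normal and independent between ProbeSets and arrays, with no effect of scan day, lot or operator. False calls from these effects could therefore not occur in it. Few ProbeSets were changed, so the recovery need not hold for the real arrays.

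The 32 function and 11 marker lists held 1138 symbols, 899 of them on the array. The members and lists were chosen with earlier results of these data known. Named genes came from a rule: the 15 largest differences in each direction with both means of at least 4, up to 8 per direction with a mean under 4, up to 3 called genes per list and direction and 2 uncalled, the genes of the study's PCR primers, and runs of neighbours. Outside it, and chosen after their values were seen, are RT1-DMb, Cd74, Csf1r, Aif1, Ptprc, Col3a1, Kdr, Acaca, Mid1ip1, Scd, Cst3, Anxa6 and Anxa2, and the genes given at the limit of expression. Alternatives were other normalizations, filters, thresholds and variance settings, a replicate block, scan day as a random block (statmod 1.5.0), and each array left out.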

Additional observations from a re-analysis of the deposited data

Results flagged for a closer look

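By Dixon's criterion for the gap to the nearest rat, single rats stood apart within their group of 4 in 13 of 202 groups examined for the named genes. Chance alone gives about 1 in 20, close to this share, so nothing is read from their number. In Line-A, replicate 4 was low for RT1-DMb (4.94) and Ctss (7.85), replicate 1 was high for Psme1 (11.25) and Serpina6 (13.29) and low for Slc4a2 (6.45), and replicate 2 was high for Aif1 (6.35). In S-D, replicate 1 was low for Csf1r (6.85) and Cd14 (7.54), and replicate 3 was high for Fcgr2b (10.29) and Hnrnpul1 (7.08) and low for Dsc2 (8.42). The other 2 were Fcgr3a in Line-A replicate 2 (3.47) and RT1-N2 in S-D replicate 1 (3.90), both under the limit of expression, where signals hold no order.

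The difference from S-D was not the same in both lines for 16 of the genes described above, tested as Line-A minus Line-C at 1% FDR with limma. Line-A was above Line-C for RT1-N2 (fitted value 4.51, with Line-C under the limit of expression, at least 17.1-fold), Olr59 (3.60), Sqor (2.69), Ctsh (0.59), Haao (0.56) and Serpina4 (0.30). Line-A was below Line-C for Cyp2c12 (-3.86), Itga1 (fitted value -3.26, with Line-A under the limit, at least 7.62-fold), Dsc2 (-2.87), Ifitm3 (-2.36), Cd14 (-2.26), Lyz2 (-1.82), Ly6e (-1.23), Tpp1 (-0.89), Igfbp3 (-0.81) and Cyp3a2 (-0.64). Among these Cyp2c12, Ifitm3 and Cd14 were not called between Line-A and S-D. Agtr1a, a gene of the PCR primers not described above, is outside the 16 and differed between the lines by more. It averaged 10.79 in Line-A, 10.70 in S-D and 3.91 in Line-C, under the limit of expression. The fitted value of Line-A minus Line-C was 6.88 (limma adjusted p = 1.98e-14), and 5.78 (1.30e-15) in its other ProbeSet. Agtr1a was not called between Line-A and S-D (adjusted p = 0.658).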

How the results depend on the processing

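The count of called ProbeSets, 921 (355 higher, 566 lower), stayed within 1.5 times under a fit of the 8 arrays of the pair (723, of which 560 were among the 921), limma's trend, robust variances, an unmoderated test, a further quantile normalization (959), equal array medians (1038), adjustment over the expressed ProbeSets alone and other limits of expression. It moved to 2298 (1197 higher, 1101 lower) with array weights, 2298 (1165, 1133) at 5% FDR, 414 (130, 284) at 0.1% FDR, 299 (78, 221) with a further 2-fold limit and 318 (93, 225) with scan day as a random block. Leaving out 1 array gave 665 to 1600 in all, 228 to 776 higher and 437 to 824 lower. The upper ends came without H/W replicate 3, which is not part of the comparison but of the shared variance, and the cause was not tested. Without it all 921 calls were kept. Leaving out an S-D array gave 665 to 712 and a Line-A array 701 to 786. Quantile normalization made 43.3% and equal medians 49.4% of calls higher, against 38.5%. With the replicate number as a block 832 were called (314 higher, 518 lower). Rats of the same number deviated together by correlations of 0.05, 0.06, 0.09 and 0.05, against -0.10 to 0.05 for rats of different numbers. The same-number correlations were all positive but under 0.1, so the numbers were not taken as pairs in the main fit. Whether rats of the same number shared a step of the work was not tested. Of 93 called genes described here, 71 were called in the fit of 8 arrays, 92 with that block and 63 with scan day as a random block. None of the 93 changed direction under any alternative run. Ciita, uncalled, had differences of 0.0185 with quantile normalization, 0.0313 with equal medians and -0.0458 to 0.0204 without 1 array, so that its sign was not fixed.

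Each S-D array shared its scan day, lot and operator only with other S-D arrays, so the random block borrows the spread between days from the other strains. Signals under 4 hold no order, and the array number limits what can be seen. In the simulated data, which held no scan day effect and few changed ProbeSets, 33 of 100 differences of 0.5 and 74 of 100 of 1 were recovered. Counts in single lists rest on few genes. Probe sequences were not analysed here. Whether the corn oil treatment was identical in S-D rests on the protocol alone.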

Other observations

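Some ProbeSets fell under the limit of expression over 20 arrays because S-D alone expressed them. Ubd, a ubiquitin-like protein induced by inflammatory cytokines, was at 2.39 to 2.45 in the 4 Line-A rats and at 2.35, 8.41, 7.49 and 8.24 in the S-D rats, so that S-D replicate 1 was under the limit like Line-A. With values under 4 set to 4, Line-A was at least 8.20-fold lower (limma adjusted p = 0.00402). Vcam1, an adhesion molecule of activated endothelium, was at 3.59, 3.04, 3.16 and 3.12 in Line-A and 5.04, 5.34, 5.05 and 4.92 in S-D (adjusted p = 8.30e-09). The transcription factor Foxo1 was at 2.86 to 2.91 in Line-A and 5.24, 4.72, 5.07 and 5.80 in S-D (adjusted p = 1.30e-06). Phgdh, of the serine, glycine and one-carbon list, was at 2.14 to 2.29 in Line-A and 6.85, 5.94, 4.71 and 6.81 in S-D (adjusted p = 5.25e-07). Psat1 of the same list was at 2.38 to 2.97 in Line-A and 6.78, 5.72, 2.63 and 6.21 in S-D (adjusted p = 0.00467). Its S-D replicate 3 was under the limit like Line-A. All of these genes were under 4 in every Line-A rat. Ubd, Vcam1, Foxo1, Phgdh and Psat1 were chosen after their values were seen.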
